A study of Mus musculus with 16 samples.

Results

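The comparison described here sets the crushed C57BL/6 sciatic nerve at day 7 after injury against the same tissue at day 3. It rests on 4 of the 16 arrays of the series, 2 for day 7 and 2 for day 3, which were chosen by the strain and time in their labels. All genes on the array were examined, each through its brightest probe set, judged by the mean of the 16 arrays. All 4 arrays came from wild type C57BL/6 mice, 8 to 12 weeks old, whose left sciatic nerve had been given a microcrush at mid-thigh, so the comparison holds injured tissue on both sides. A segment of 4 mm distal to the crush was freed of connective tissue, and RNA was extracted from pooled stumps of each group. The labels call the arrays of a group biological replicates, and how many mice went into a pool is not given in the sources used here. Every p-value therefore measures the spread between pools. Uninjured nerves (day 0) and nerves 14 days after the crush of the same strain are quoted only to place a level in time. The C57BL/6 OlaHsd-Wlds strain, labelled WldS mutant and called WldS here, had the same lesion, ages and days, and its own 4 arrays for day 7 and day 3 serve as a comparison that shares no array.

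Distal to a crush the cut axons break down, and Schwann cells, the glia that wrap them, shut down myelin production, divide and turn into repair cells that secrete trophic factors. Blood monocytes enter the nerve and become macrophages that take up axon and myelin debris. The tubes of basal lamina survive a crush, so axons can grow back through them, and Schwann cells that meet an axon again can start to make myelin. In WldS mice a fusion protein delays the breakdown of cut axons.

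Values are log2 signals as the authors normalized them. The day 7 arrays were close to each other, with a median standard deviation of 0.0608 over the 14545 genes tested, the lowest of the 8 groups, against 0.107 for the day 3 arrays and 0.145 for the group with the widest spread. Day 3 replicate 2 was nearer to the day 7 arrays (Pearson's r of 0.974 with each, across genes) than day 3 replicate 1 was (0.963 and 0.961). The ratio of 3' to 5' control probe set signal, a sign of RNA quality, was 2.01 and 1.93 on the log2 scale at day 7, against 1.99 and 1.63 at day 3. Schwann cell identity of the tissue was checked with Sox10, a transcription factor of Schwann cells, at 11.74 and 11.67 at day 7 and 11.51 and 11.14 at day 3, and with S100b, a calcium-binding protein of these cells, at 10.29 and 10.41 against 9.58 and 9.51.

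Between day 3 and day 7 the nerve lost signal of recruited monocytes, chemokines and interferon-responsive genes, and of the Schwann cell factors Gdnf, Clcf1 and Shh. Over the same days it gained signal of Tyrp1, Gpnmb and Kcna1, of the transcription factors Egr3, Id2 and Pou3f1, and of part of the myelin and nerve fibroblast lists. Of 14545 genes tested, 2950 (20.3%) differed between day 7 and day 3 at an adjusted p below 0.05 (limma, two-sided, Benjamini-Hochberg), with 1397 higher at day 7 (9.60%) and 1553 lower (10.7%). Of these, 529 genes (3.64%) changed at least 2-fold, 266 upward and 263 downward, and the count was 805 without day 3 replicate 2. The median change of all tested genes was 0.002, and for each called gene both day 7 arrays lay on the same side of both day 3 arrays. The number of calls rested on single arrays. It was 1401 without day 7 replicate 1, 1230 without day 7 replicate 2, 1123 without day 3 replicate 1 and 2669 without day 3 replicate 2. Without day 3 replicate 1 the split also turned, to 567 higher and 556 lower.

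**Figure D1:**
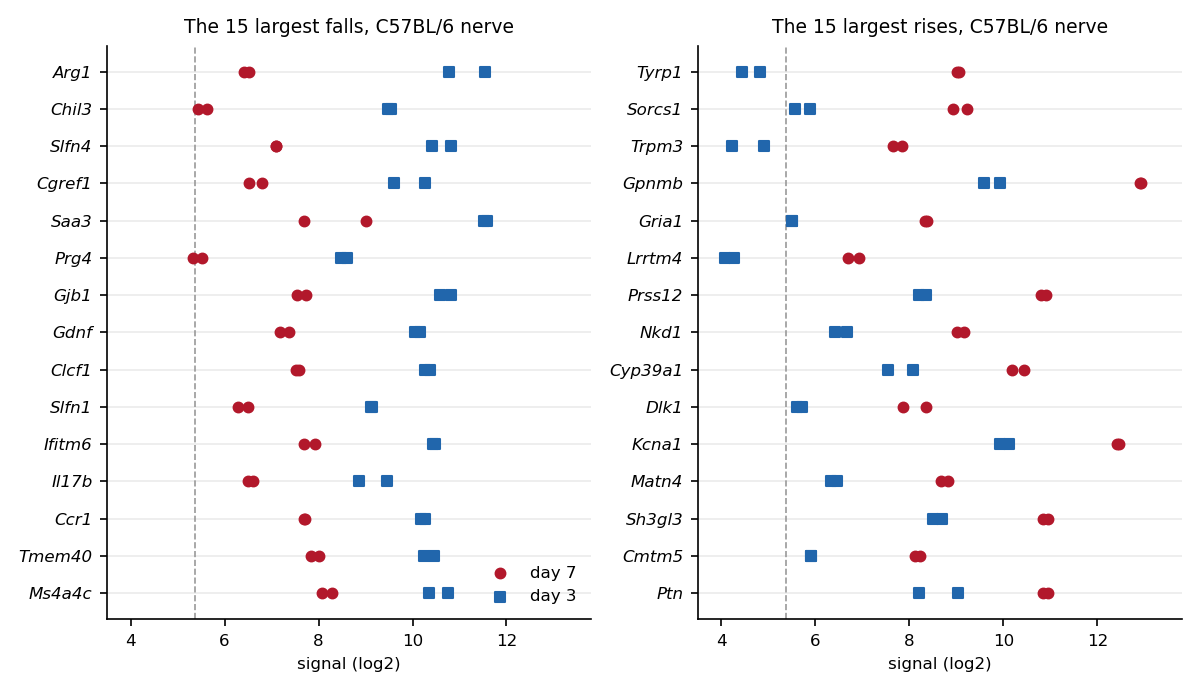
Signal on the log2 scale (x axis) of the genes with the largest falls (left panel) and rises (right panel) in C57BL/6 nerve, with a red circle for each day 7 array and a blue square for each day 3 array; the dashed line is the level below which a gene counted as dim (log2 5.37). In each gene shown the 2 circles lie apart from the 2 squares, and Tyrp1, Trpm3 and Lrrtm4 lay below the line on both day 3 arrays.

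The deepest falls were those of Arg1 and Chil3, which mark macrophages of the alternatively activated kind. Arg1, which degrades arginine, had 6.53 and 6.42 at day 7, against 10.78 and 11.54 at day 3, a change of -4.68 ± 0.39 on the log2 scale (SE; limma adjusted p = 3.3e-06). Chil3, a secreted chitinase-like protein, had 5.62 and 5.45 at day 7, against 9.55 and 9.49 at day 3 (-3.98 ± 0.20, adjusted p = 4.03e-08). At day 7 Chil3 lay just above the dim filter, and for both genes the groups were far apart on every array. Their means at day 14 were 9.85 for Arg1 and 11.01 for Chil3, and before injury 5.04 and 4.93. Among the other genes of alternatively activated macrophages, Ccl24, a chemokine for eosinophils, fell by 0.96, Cd163, a scavenger receptor for haemoglobin, by 0.93, and F13a1, a clotting factor subunit made by macrophages, by 0.91. In all, 8 of 14 tested members of that list were lower and 1 was higher (median -0.81, against 0.002 over all genes). The lower members numbered 5 without day 3 replicate 1, where the call of Cd163 also ended (adjusted p = 0.0679), and the higher ones 0 without day 3 replicate 1 or either day 7 array.

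Genes of monocytes that have recently left the blood fell as a group. Of 11 tested members, 9 were lower and 0 were higher (median -1.63), and 9 were lower with any of the 4 arrays left out. Ccr2, the receptor that draws monocytes to tissue, had 9.28 and 9.52 at day 7, against 10.59 and 11.23 at day 3 (-1.51 ± 0.18, adjusted p = 8.17e-05). Plac8, a small protein of blood monocytes, had 10.14 and 10.07, against 11.88 and 11.60 at day 3 (-1.63 ± 0.25). For both genes the day 7 arrays were the lower ones, without overlap. Slfn4, an interferon-inducible gene of myeloid cells, changed by -3.53 ± 0.30, Ifitm6 by -2.64 ± 0.19, Ms4a4c by -2.37 ± 0.26, Hp, the haemoglobin-binding haptoglobin, by -2.05 ± 0.29 and Ms4a8a by -2.00 ± 0.21, all of them falls. Slfn1, of the same family as Slfn4, fell by 2.73, and Ccr1, a receptor for inflammatory chemokines, by 2.52. Before injury Hp (10.78) had been above its day 7 mean (9.86). Ifitm6 and Ms4a8a had been near theirs, with overlapping arrays, and Ccr2, Plac8, Slfn4 and Ms4a4c had been lower than at day 7. The mean over the 11 members, relative to the mean of the day 3 arrays, was -1.59 and -1.62 on the day 7 arrays, against -0.06 and 0.06 on the day 3 arrays. In bulk tissue, fewer cells of a type and less RNA per cell cannot be told apart, here and in all results below.

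General macrophage genes moved less. Of 23 tested members, 7 were lower and 0 were higher (median -0.23), and with the mean of each gene's probe sets 9 and 1 (median -0.36). Adgre1, the F4/80 antigen, had 10.76 and 10.74 at day 7, against 10.74 and 10.83 at day 3, and the groups overlapped (-0.03 ± 0.14, adjusted p = 0.903). Csf1r, the receptor for the macrophage growth factor, was at 13.09 and 12.93, against 13.30 and 13.25 at day 3 (-0.27 ± 0.13, adjusted p = 0.161). Its other probe sets gave -0.49 and -0.45. The members that fell included Itgam, the CD11b integrin chain (-1.69 ± 0.19), Cd14, a co-receptor for bacterial lipopolysaccharide (-1.50 ± 0.15), Fcgr1, a high-affinity IgG receptor (-1.34 ± 0.20), and Spi1, a transcription factor of the myeloid lineage (-1.14 ± 0.21). Of 12 genes of MHC class II antigen presentation, 2 were lower and 1 was higher (median -0.19), with 0 higher when any of the 4 arrays was left out. Over all genes 10.7% were lower and 9.60% higher, so the class II counts were near those shares. H2-Aa, a chain of a class II molecule, stood at 12.93 and 12.96 at day 7, against 12.94 and 12.90 at day 3, with -0.44 to -0.12 for its other probe sets. Cd74 had 11.84 and 11.95, against 12.44 and 12.34 at day 3, and did not pass (-0.49 ± 0.23, limma adjusted p = 0.154). The called members were H2-DMa (-1.10 ± 0.18), Cd86 (-0.76 ± 0.16) and Cd83 (0.57 ± 0.16).

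Genes of neutrophils, the first blood cells to enter a wound, were also lower, and of those named here all but Mmp9 were near or below the dim filter at day 7. S100a8, a subunit of calprotectin, had 5.52 and 5.29 at day 7, against 6.93 and 7.53 at day 3 (-1.83 ± 0.30, adjusted p = 0.000946). S100a9, its partner, had 5.35 and 5.36, against 6.97 and 7.37 at day 3, and since the day 7 mean was below the dim filter its change of -1.82 ± 0.21 is a lower bound in size. Both were low on both day 7 arrays. Padi4, which citrullinates histones, fell by at least 1.91, Lcn2, an iron-trapping granule protein, by at least 1.52, and Mmp9, a gelatinase, by 1.62, from 9.01 to 7.39. Before injury Lcn2 (6.07) and Mmp9 (8.36) had been above their day 7 means, whereas S100a8, S100a9 and Padi4 had not. Of 14 members, 7 were lower and 1 was higher (median -0.34), and with a stricter dim filter, at the 50th percentile of probe sets, 3 of 3 were lower (median -0.80).

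Signals that call leukocytes in fell together with these markers. Of 22 chemokine genes tested, 12 were lower and 0 were higher (median -0.62). Ccl2, the main attractant of monocytes, had 8.50 and 8.25 at day 7, against 10.85 and 10.35 at day 3 (-2.23 ± 0.18, adjusted p = 2.85e-06). Ccl7, Ccl12 and Ccl9, other chemokines for monocytes, fell by 2.16, 1.95 and 1.44. Cxcl2, an attractant of neutrophils, had 4.79 and 4.65 at day 7, below the dim filter, against 6.23 and 7.94 at day 3, a fall of at least 2.37 ± 0.47 (adjusted p = 0.0034). Its day 3 arrays differed by more than a log2 unit, and both were above the day 7 arrays. Il1b, the inflammatory cytokine interleukin-1 beta, had 5.45 and 5.42 at day 7, close to the dim filter, against 6.80 and 7.08 at day 3 (-1.50 ± 0.15). Of 16 cytokine genes, 5 were lower and 1 was higher (median -0.31, and -0.20 with the stricter dim filter), and 3 were lower without day 7 replicate 1, without day 7 replicate 2 or without day 3 replicate 1. None was higher with any of the 4 arrays left out. Saa3, an acute phase protein, had 9.01 and 7.68 at day 7, against 11.59 and 11.53 at day 3 (-3.21 ± 0.36). Prg4, the lubricant proteoglycan lubricin, changed by -3.10 ± 0.22 and Il17b, a cytokine, by -2.61 ± 0.17. The day 7 mean of Prg4 (5.43) was also close to the dim filter. The share that monocyte and macrophage genes have in the falls of chemokine genes was not tested.

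Genes that respond to interferon fell, and all 17 tested members had a negative change. Of them, 12 passed the test and 0 were higher (median -1.07). Irf7, a transcription factor that amplifies interferon production, had 7.81 and 7.57 at day 7, against 9.55 and 9.13 at day 3 (-1.65 ± 0.19, adjusted p = 5.28e-05). Ifit1, which binds viral RNA, had 7.26 and 6.88, against 9.05 and 9.11 at day 3 (-2.02 ± 0.27). Both genes were lower on each day 7 array. Oasl2 and Oas1a, of the oligoadenylate synthetase family, fell by 1.76 and 1.48, and Mx1, an antiviral GTPase, by at least 1.65. The day 7 means of Irf7 (7.69) and Oas1a (8.84) were above those of uninjured nerve (7.45 and 8.16). Those of Ifit1 (7.07) and Oasl2 (7.95) were below them (8.58 and 8.17). For Irf7 and Oasl2 the day 7 and uninjured arrays overlapped, and Mx1 was below the dim filter at both times.

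Heme and iron genes moved in both directions. Hmox1, which opens the heme ring, had 8.39 and 8.37 at day 7, against 10.14 and 10.03 at day 3 (-1.70 ± 0.20, adjusted p = 5.61e-05), and Blvrb, which acts on a product of that step, fell by 1.24 ± 0.22. Slc40a1, the iron exporter ferroportin, had 8.91 and 9.02, against 7.94 and 8.08 at day 3 (0.95 ± 0.22). Its arrays did not overlap, and its call ended without day 7 replicate 2 (adjusted p = 0.0659) or day 3 replicate 1 (adjusted p = 0.0716). Tfrc, the transferrin receptor that brings iron in, fell by 1.07 ± 0.20, while its other probe set gave -0.33. Of 16 members 6 were lower and 3 were higher (median -0.19, and -0.07 with the mean of each gene's probe sets), and the higher ones numbered 0 without day 7 replicate 2 and 1 without day 3 replicate 1, while 4 were lower without day 3 replicate 1.

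Gdnf, Clcf1 and Shh, secreted factors that Schwann cells can make, fell over the same days. Gdnf, a survival factor for motor and sensory neurons, had 7.18 and 7.37 at day 7, against 10.15 and 10.06 at day 3 (-2.83 ± 0.17, adjusted p = 1.3e-07). Clcf1, a cytokine that signals through the receptor of ciliary neurotrophic factor, had 7.59 and 7.52, against 10.37 and 10.27 at day 3 (-2.76 ± 0.16, adjusted p = 1.27e-07). Both were low on each day 7 array, by a margin many times the spread within a day, and their other probe sets, where there were any, also fell (-3.10 and -2.03 for Clcf1). Shh, a secreted morphogen that repair Schwann cells make, had 11.81 and 11.84 at day 7, against 13.17 and 13.30 at day 3 (-1.41 ± 0.16). Its mean of 11.83 at day 7 was still far above the 8.86 of uninjured nerve. Ucn2, a peptide of the corticotropin-releasing family, fell by 0.99 ± 0.13.

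Other repair-state genes went the other way. Erbb3, the neuregulin receptor of Schwann cells, had 11.99 and 12.07 at day 7, against 9.88 and 10.08 at day 3 (2.05 ± 0.19, adjusted p = 7.81e-06), while its other probe set gave 0.45. Mcam, an adhesion molecule, had 10.81 and 10.87, against 9.51 and 9.65 at day 3 (1.26 ± 0.15). Of 20 tested members of the repair and immature Schwann cell list, 8 were higher and 4 were lower (median 0.28). The higher members numbered 3 without day 7 replicate 1, 4 without day 7 replicate 2, 4 without day 3 replicate 1 and 6 without day 3 replicate 2.

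The transcription factor genes of Schwann cells divided in a similar manner. Egr3, of the same zinc finger family as the myelin regulator Egr2, had 10.25 and 10.13 at day 7, against 7.98 and 7.94 at day 3 (2.23 ± 0.18, adjusted p = 1.88e-06), although its other probe set gave only 0.12. Id2, an inhibitor of helix-loop-helix factors, had 10.60 and 10.74, against 8.85 and 8.93 at day 3 (1.78 ± 0.21). Pou3f1, which Schwann cells use as they prepare to make myelin, had 11.58 and 11.40, against 10.34 and 9.93 at day 3 (1.35 ± 0.18). All 3 were high on both day 7 arrays. Egr2 itself had 11.47 and 11.46 at day 7, against 10.44 and 10.71 at day 3 (0.89 ± 0.17, adjusted p = 0.00237). Jun, the factor that drives the repair state, was at 10.73 and 10.76, against 10.31 and 10.48 at day 3 and did not pass (0.35 ± 0.12, adjusted p = 0.0604). Hmga2, a chromatin protein of fetal and dividing cells, had 9.73 and 9.73 at day 7, against 11.43 and 11.61 at day 3 (-1.79 ± 0.12, adjusted p = 4.02e-07). Its other probe sets fell as well, by 2.47 and 2.11. Of 18 members 5 were higher and 1, Hmga2, was lower (median 0.19).

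Among genes that cells switch on within minutes of a stimulus, 7 of 17 were lower and 4 were higher (median -0.23), and 4 were lower without day 7 replicate 1 or without day 3 replicate 1. Fosl1, a partner of Jun, had 6.02 and 5.96 at day 7, against 8.56 and 7.62 at day 3 (-2.10 ± 0.24, adjusted p = 5.07e-05), and its other probe set gave -0.25. Fos, the founding member of that family, was at 11.49 and 11.62, against 11.79 and 11.78 at day 3 (-0.23 ± 0.11, adjusted p = 0.169). Nr4a1, an orphan nuclear receptor, rose by 0.94 ± 0.14 and Ier3 fell by 0.93 ± 0.12.

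**Figure D2:**
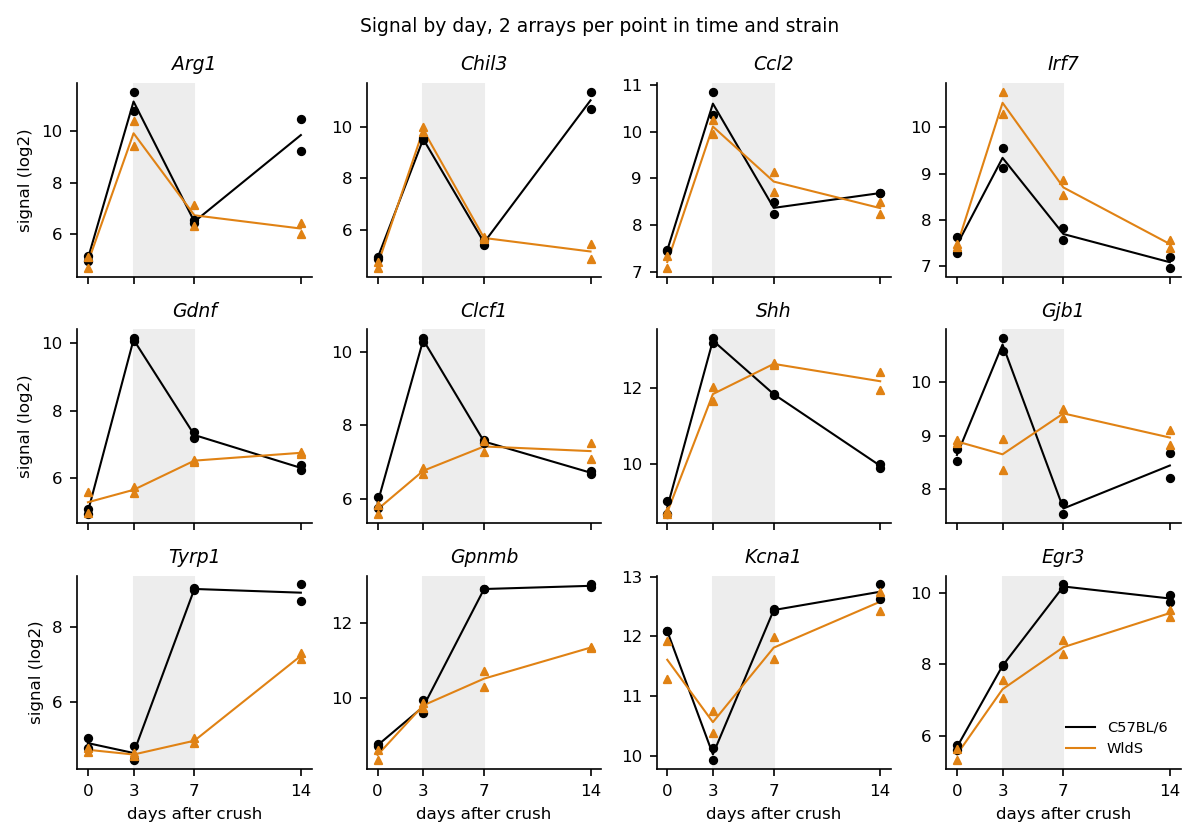
Signal on the log2 scale (y axis, scaled per gene) against days after the crush for selected genes, with a point for each array and a line through the group means of C57BL/6 (black circles) and WldS (orange triangles); the grey band spans day 3 to day 7. In C57BL/6, Arg1, Chil3, Ccl2, Irf7, Gdnf, Clcf1, Shh and Gjb1 had lower signal at day 7 than at day 3, and Tyrp1, Gpnmb, Kcna1 and Egr3 had higher signal.

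Cell division genes were lower at day 7, by modest amounts. Of 26 genes of DNA replication all had a negative change, 14 of them past the test (median -0.48), and of 29 genes of mitosis 13 were lower and 0 were higher (median -0.43). With the mean of each gene's probe sets the medians were -0.30 and -0.26, with 13 and 11 lower. Mcm5, part of the replicative helicase, had 9.02 and 9.14 at day 7, against 10.14 and 10.00 at day 3 (-0.99 ± 0.17, adjusted p = 0.00142), with -0.50 and -0.06 for its other probe sets. Cdt1, which loads that helicase, fell by 0.88 ± 0.17. Ube2c, a ubiquitin carrier of mitotic exit, had 7.86 and 8.15, against 9.15 and 8.85 at day 3 (-0.99 ± 0.17, adjusted p = 0.001). Each of these was lower on both day 7 arrays. The commonly used marker Mki67, in contrast, stood at 11.39 and 11.32 at day 7, against 11.48 and 11.48 at day 3 (-0.12 ± 0.17, adjusted p = 0.686), and Rrm2, a subunit of ribonucleotide reductase, at 10.90 and 11.08, against 11.02 and 11.14 (-0.09 ± 0.14, adjusted p = 0.713). Both remained far above uninjured nerve (6.37 for Mki67 and 6.00 for Rrm2). Cdk1, the mitotic kinase, was at 9.40 and 9.51, against 9.92 and 9.88 at day 3 (-0.44 ± 0.19, adjusted p = 0.124). The counts shrank with 1 array fewer. Without day 7 replicate 1, day 7 replicate 2, day 3 replicate 1 or day 3 replicate 2, the lower members numbered 4, 4, 4 and 8 for DNA replication and 5, 6, 7 and 8 for mitosis.

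Many promoters of mitotic genes hold a short element called CHR, which the DREAM complex binds, and CCAAT boxes, which the factor NF-Y binds. Promoters of 4 members that fell are printed here to show how these elements lie, with every CHR (TTTGAA or, on the other strand, TTCAAA) and every CCAAT box (CCAAT or ATTGG) in capitals. They were taken only from called members that hold a CHR or a CCAAT box, each in its window with the most matches. Their counts are therefore not typical of all members that fell. Kif20a (-1.05) and Tpx2 (-0.93), which fell more than Ndc80 and Ttk, are not among the printed promoters. Only some of the called members with such an element were printed. The absence of Kif20a and Tpx2 therefore does not show that they lack a CHR or a CCAAT box. The fall of Tpx2 was not seen in its other probe sets, which gave -0.06 to 0.05. The windows run from 250 bases before to 50 bases after the gene's start, 5′ to 3′ along the gene, from RefSeq on GRCm38.p6. Ccnb2, a mitotic cyclin, lies on the minus strand at chr9:70421505-70421804, Ube2c on the plus strand at chr2:164769679-164769978, Ndc80, a kinetochore protein, on the minus strand at chr17:71526808-71527107, and Ttk, a spindle checkpoint kinase, on the plus strand at chr9:83834439-83834738.
Ccnb2: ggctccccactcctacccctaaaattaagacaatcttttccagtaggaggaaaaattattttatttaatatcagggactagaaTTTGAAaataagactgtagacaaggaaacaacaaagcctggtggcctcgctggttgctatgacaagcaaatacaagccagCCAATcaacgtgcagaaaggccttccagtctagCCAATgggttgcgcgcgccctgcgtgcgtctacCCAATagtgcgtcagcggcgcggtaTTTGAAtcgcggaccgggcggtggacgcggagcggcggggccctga
Ube2c: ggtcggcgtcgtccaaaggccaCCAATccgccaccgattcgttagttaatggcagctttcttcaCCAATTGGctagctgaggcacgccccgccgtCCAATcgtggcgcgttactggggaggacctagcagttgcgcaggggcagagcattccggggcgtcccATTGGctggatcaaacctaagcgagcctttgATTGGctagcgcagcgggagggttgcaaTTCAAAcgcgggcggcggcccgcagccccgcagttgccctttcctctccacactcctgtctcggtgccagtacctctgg
Ndc80: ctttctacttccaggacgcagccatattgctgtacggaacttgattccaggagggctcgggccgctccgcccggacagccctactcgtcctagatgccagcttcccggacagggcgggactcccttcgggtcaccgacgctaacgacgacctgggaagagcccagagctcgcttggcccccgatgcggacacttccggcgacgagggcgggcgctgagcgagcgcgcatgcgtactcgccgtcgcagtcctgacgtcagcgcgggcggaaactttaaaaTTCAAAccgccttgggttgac
Ttk: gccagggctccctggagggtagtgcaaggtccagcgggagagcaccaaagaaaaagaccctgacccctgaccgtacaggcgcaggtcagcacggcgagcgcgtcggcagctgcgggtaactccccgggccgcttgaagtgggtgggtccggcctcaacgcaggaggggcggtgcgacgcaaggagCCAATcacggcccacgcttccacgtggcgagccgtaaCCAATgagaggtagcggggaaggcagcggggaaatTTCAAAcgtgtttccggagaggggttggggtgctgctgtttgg

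In these windows Ccnb2 held 2 CHR matches and 3 CCAAT boxes, Ube2c 1 and 6, Ndc80 1 and 0, and Ttk 1 and 2. No CHR match overlapped a CCAAT box, and 2 of the 6 CCAAT boxes of Ube2c overlapped each other. The CHR of Ube2c began 29 bases before the start, and its nearest CCAAT box 57 bases before. Of the 25 tested mitosis genes with a window, 18 held a CHR on either strand and 19 a CCAAT box, against 20.2% and 41.1% of the 27025 genes with a window. A CHR was present in 9 of 11 members that fell and in 9 of 14 that did not pass. A match shows that the letters are there, and binding was not measured. Ccnb2 had 7.82 and 7.98 at day 7, against 8.90 and 8.90 at day 3 (-1.0 ± 0.21), and its call ended without day 7 replicate 1 (adjusted p = 0.0502). Ndc80 had 6.79 and 7.02, against 7.68 and 7.65 at day 3 (-0.76 ± 0.17), a call that ended without day 7 replicate 1 (adjusted p = 0.0734) or day 3 replicate 1 (adjusted p = 0.0516). Ttk had 7.01 and 7.05, against 7.70 and 7.74 at day 3 (-0.69 ± 0.11, adjusted p = 0.000994), and held throughout. The E2F-like letters TTTCCCGC were found in 3 of 22 replication genes with a window, 0 of them among the members that fell, and in 1.24% of all genes.

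The largest rise was that of Tyrp1, a melanosome enzyme best known from pigment cells. It had 9.05 and 9.01 at day 7, against 4.83 and 4.44 at day 3, below the dim filter, so its change of 4.40 ± 0.16 (adjusted p = 2.94e-09) is a lower bound. Its other probe sets rose by 2.05 and 2.52. Other pigment cell genes, chosen after their values were seen, did not pass. Pmel, a melanosome scaffold, was at 6.67 and 6.67 at day 7, against 6.58 and 6.38 at day 3 (0.19 ± 0.10), Dct, another melanin enzyme, at 5.84 and 5.70, against 5.85 and 5.68, and Mitf, their regulator, at 9.61 and 9.75, against 9.52 and 9.82. Tyr, the first enzyme of melanin synthesis, was at 5.56 and 5.61, against 5.94 and 5.63.

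Several of the largest rises belonged to genes of channels, receptors and cell contact. Kcna1, a voltage-gated potassium channel, had 12.45 and 12.43 at day 7, against 9.93 and 10.12 at day 3 (2.41 ± 0.20, adjusted p = 2.84e-06), and its other probe sets rose by 2.31 and 2.45. Kcna2, of the same family and chosen after its values were seen, had 9.57 and 9.44, against 7.29 and 7.55 at day 3 (2.08 ± 0.14), with 0.13 and 1.85 for its other probe sets. Gria1, a subunit of AMPA-type glutamate receptors, had 8.38 and 8.33, against 5.50 and 5.51 at day 3 (2.85 ± 0.18, adjusted p = 2.41e-07). In all 3 the day 7 arrays were the high ones and agreed closely. Sorcs1, a sorting receptor, had 8.93 and 9.22 at day 7, against 5.56 and 5.89 at day 3 (3.35 ± 0.17), while its other probe sets gave 0.24 and 1.23. Trpm3, a cation channel, rose by at least 3.19 ± 0.27 and Lrrtm4, a synaptic adhesion protein, by at least 2.63 ± 0.19, since both were below the dim filter at day 3. Prss12, a secreted protease of neural tissue, rose by 2.58 ± 0.12, and Sh3gl3, an endophilin of membrane traffic, by 2.30 ± 0.14. Before injury Kcna1 (12.09), Prss12 (11.13) and Sorcs1 (9.26) had been near or above their day 7 levels, whereas Gria1 (4.66), Tyrp1 (4.90) and Trpm3 (5.52) had not.

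Further large rises were spread over signalling and matrix genes. Nkd1, an inhibitor of Wnt signalling, had 9.02 and 9.16 at day 7, against 6.68 and 6.43 at day 3 (2.54 ± 0.13), with 0.08 to 0.89 for its other probe sets. Ptn, the growth factor pleiotrophin, had 10.84 and 10.95, against 8.21 and 9.04 at day 3 (2.27 ± 0.24), with 0.19 and 1.49 for its other probe sets. Both were high on each day 7 array, although the day 3 arrays of Ptn differed by 0.83. Dlk1, a Notch-related membrane protein of progenitor cells, had 8.36 and 7.86, against 5.71 and 5.62 at day 3 (2.44 ± 0.20), and was back at 6.02 at day 14. Cyp39a1, an oxysterol hydroxylase, rose by 2.51 ± 0.18, and Matn4, a matrix adaptor protein, by 2.35 ± 0.26. Clca3a2, of a family of chloride channel regulators, had 10.33 and 10.25, against 8.35 and 8.59 at day 3 (1.82 ± 0.24), and 4.70 before injury.

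Myelin genes moved in both directions. Of 15 tested, 8 were higher and 4 were lower (median 0.59). Cmtm5, a membrane protein of the chemokine-like factor family, had 8.12 and 8.22 at day 7, against 5.91 and 5.90 at day 3 (2.27 ± 0.21), with 0.91 for its other probe set. Gjc3, a connexin of Schwann cells, had 8.55 and 8.47, against 7.01 and 7.29 at day 3 (1.36 ± 0.25, with 0.23 for its other probe set), and Mag, an adhesion protein on the inner face of myelin, had 8.86 and 8.93, against 7.88 and 7.79 at day 3 (1.06 ± 0.19). These 3 were high on both day 7 arrays, and 2 of them, Cmtm5 and Mag, were still below uninjured nerve (10.11 and 10.19). The list's largest fall was that of Gjb1, a connexin of noncompact myelin, with 7.54 and 7.74 at day 7, against 10.58 and 10.82 at day 3 (-3.06 ± 0.19, adjusted p = 2.83e-07), and -4.18 for its other probe set. Gjb1 had been at 8.64 before injury, so its day 3 level was the highest and its day 7 level the lowest of the 4 days. Nfasc, an adhesion molecule of the node of Ranvier, fell by 1.70 ± 0.13, and Drp2, which anchors the myelin sheath to the basal lamina, by 1.36 ± 0.13, with -1.63 and 0.18 for its other probe sets.

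Enzymes of galactolipid synthesis rose. Ugt8a, which makes galactosylceramide, had 10.11 and 10.35 at day 7, against 8.10 and 8.44 at day 3 (1.96 ± 0.18, adjusted p = 5.8e-06), with 0.75 for its other probe set. Fa2h, which hydroxylates the fatty acids of these lipids, had 8.77 and 8.70, against 7.29 and 7.40 at day 3 (1.39 ± 0.11), and Gal3st1, which adds the sulfate of sulfatide, had 8.12 and 8.49, against 7.24 and 6.93 at day 3 (1.22 ± 0.21). In all of them both day 7 arrays were higher, and all remained below uninjured nerve, where the means were 12.51, 12.29 and 9.24. Of 20 members of the list, 8 were higher and 3 were lower (median 0.35, but 0.15 with the mean of each gene's probe sets). The higher ones numbered 5 without day 7 replicate 2 or without day 3 replicate 1, and the lower ones 1 in either case. Cholesterol synthesis, which myelin also needs, did not rise with them. Of 18 genes, 5 were lower and 0 were higher (median -0.32). Sqle, squalene epoxidase, had 8.64 and 8.44 at day 7, against 9.29 and 9.33 at day 3 (-0.77 ± 0.16), a call that ended without day 7 replicate 2 (adjusted p = 0.0526), and Pmvk, a kinase of the mevalonate pathway, fell by 0.64 ± 0.13. The lower members numbered 3, 1, 3 and 2 without day 7 replicate 1, day 7 replicate 2, day 3 replicate 1 and day 3 replicate 2.

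Genes of macrophages loaded with lipid were higher in 6 and lower in 3 of 16 (median 0.33), and higher in 3 without day 7 replicate 2. Gpnmb, a membrane glycoprotein of such macrophages, had 12.92 and 12.90 at day 7, against 9.58 and 9.93 at day 3 (3.15 ± 0.15, adjusted p = 4.03e-08), with 1.77 for its other probe set. Apoe, the lipid carrier apolipoprotein E, had 14.04 and 14.04, against 13.13 and 13.18 at day 3 (0.88 ± 0.19). The days did not overlap for either gene, although the arrays of Gpnmb differed more at day 3 than at day 7. Mmp12, macrophage elastase, had 8.81 and 9.22 at day 7, against 5.93 and 7.88 at day 3 (2.11 ± 0.42), with a wide gap between the day 3 arrays. Trem2, a lipid-sensing receptor, rose by 0.78, with -0.18 for its other probe set and a call that ended without day 7 replicate 2 (adjusted p = 0.0827) or with the mean of its probe sets (adjusted p = 0.0784). Lgals3, a galectin of phagocytes, fell by 0.90 ± 0.17, and Cd5l, a protein of tissue macrophages, by 1.39 ± 0.26. In Apoe and Mmp12 the day 14 mean (14.04 and 9.64) was at or above that of day 7.

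Lysosomal genes, which carry the digestion of debris, were higher in 7 and lower in 0 of 19 (median 0.38). Ctsd, the protease cathepsin D, had 13.96 and 13.96 at day 7, against 13.09 and 13.29 at day 3 (0.77 ± 0.17, adjusted p = 0.00574), and its call ended without day 3 replicate 1 (adjusted p = 0.072). Lamp1, a protein of the lysosomal membrane, had 13.53 and 13.58, against 13.06 and 13.23 at day 3 (0.41 ± 0.12, adjusted p = 0.0229), a call that held only without day 3 replicate 2. Both were higher on each day 7 array. The higher members numbered 2 without day 7 replicate 1, 2 without day 7 replicate 2, 0 without day 3 replicate 1 and 7 without day 3 replicate 2.

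Several laminin and collagen genes rose. Lama2, the laminin chain of the Schwann cell basal lamina, had 11.37 and 11.29 at day 7, against 9.72 and 9.49 at day 3 (1.72 ± 0.19, adjusted p = 3.93e-05). Lama4 and Lamb1, further laminin chains, rose by 0.91 ± 0.14 and 0.88 ± 0.11, and their other probe sets rose too (0.48 for Lama4 and 0.52 to 1.29 for Lamb1). Of 27 matrix glycoproteins and crosslinking enzymes, 9 were higher and 3 were lower (median 0.27), and the lower ones numbered 1 without day 7 replicate 2 or without day 3 replicate 2. Fn1, fibronectin, was at 13.55 and 13.42, against 13.41 and 13.54 at day 3 (0.01 ± 0.19, adjusted p = 0.974). Of 22 collagens, 7 were higher and 0 were lower (median 0.29), led by Col16a1 (1.01 ± 0.12), while Col1a1 (0.30 ± 0.13, adjusted p = 0.124) and Col3a1 (0.24 ± 0.12, adjusted p = 0.175), the main fibrillar collagens, did not pass. The higher collagens numbered 2 without either day 7 array, 4 without day 3 replicate 1 and 5 without day 3 replicate 2. Timp1, an inhibitor of matrix proteases, had 10.66 and 10.51 at day 7, against 12.86 and 12.64 at day 3 (-2.17 ± 0.15, adjusted p = 4.69e-07), the largest change of its list, in which 4 of 22 were lower and 4 were higher. Over all genes 10.7% were lower and 9.60% were higher. The 3 of 27 lower matrix glycoprotein and crosslinking genes were near the share lower over all genes.

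Genes of nerve fibroblasts and perineurial cells were higher in 9 and lower in 1 of 17 (median 0.45). Sfrp2, a secreted modulator of Wnt signalling, had 11.07 and 10.99 at day 7, against 9.45 and 9.66 at day 3 (1.47 ± 0.25, adjusted p = 0.00107), and Abca8a, a lipid transporter, had 12.27 and 12.41, against 10.97 and 10.96 at day 3 (1.38 ± 0.14). Wif1, a Wnt inhibitor, rose by 1.03 ± 0.14. The member that fell was Crabp2, a carrier of retinoic acid, with 8.48 and 8.80, against 10.86 and 10.94 at day 3 (-2.26 ± 0.23, adjusted p = 1.51e-05). Pdgfra, a receptor common to these cells, was at 12.04 and 11.86, against 11.50 and 11.70 at day 3 (0.35 ± 0.15, adjusted p = 0.11). The higher members numbered 5 without day 7 replicate 1, 4 without day 7 replicate 2, 4 without day 3 replicate 1 and 7 without day 3 replicate 2. Of 15 endothelial genes, 5 were lower and 1 was higher (median -0.36), with 3 lower without either day 7 array or without day 3 replicate 2, and 0 higher unless day 7 replicate 1 was the array left out. Plvap, a protein of fenestrated endothelium, had 9.55 and 9.56 at day 7, against 10.57 and 10.44 at day 3 (-0.95 ± 0.14), and Tie1, an endothelial receptor kinase, fell by 0.81 ± 0.17. Pecam1 (0.34 ± 0.27) and Cdh5 (-0.36 ± 0.18), the general markers of this cell type, did not pass. Acta2, smooth muscle actin, fell by 0.92 ± 0.12. Its list of pericyte and smooth muscle genes, near the shares over all genes (9.60% higher and 10.7% lower), had 2 of 14 higher and 2 lower. Those counts were 1 and 1 without day 7 replicate 1 or day 3 replicate 1, 3 and 1 without day 7 replicate 2, and 1 and 2 without day 3 replicate 2. The mean of the endothelial list relative to day 3 was -0.24 and -0.30 on the day 7 arrays, against -0.09 and 0.09 on the day 3 arrays, and that of the fibroblast list was 0.46 and 0.49, against -0.04 and 0.04. What shifts in cell numbers contribute to the matrix changes was not tested.

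**Figure D3:**
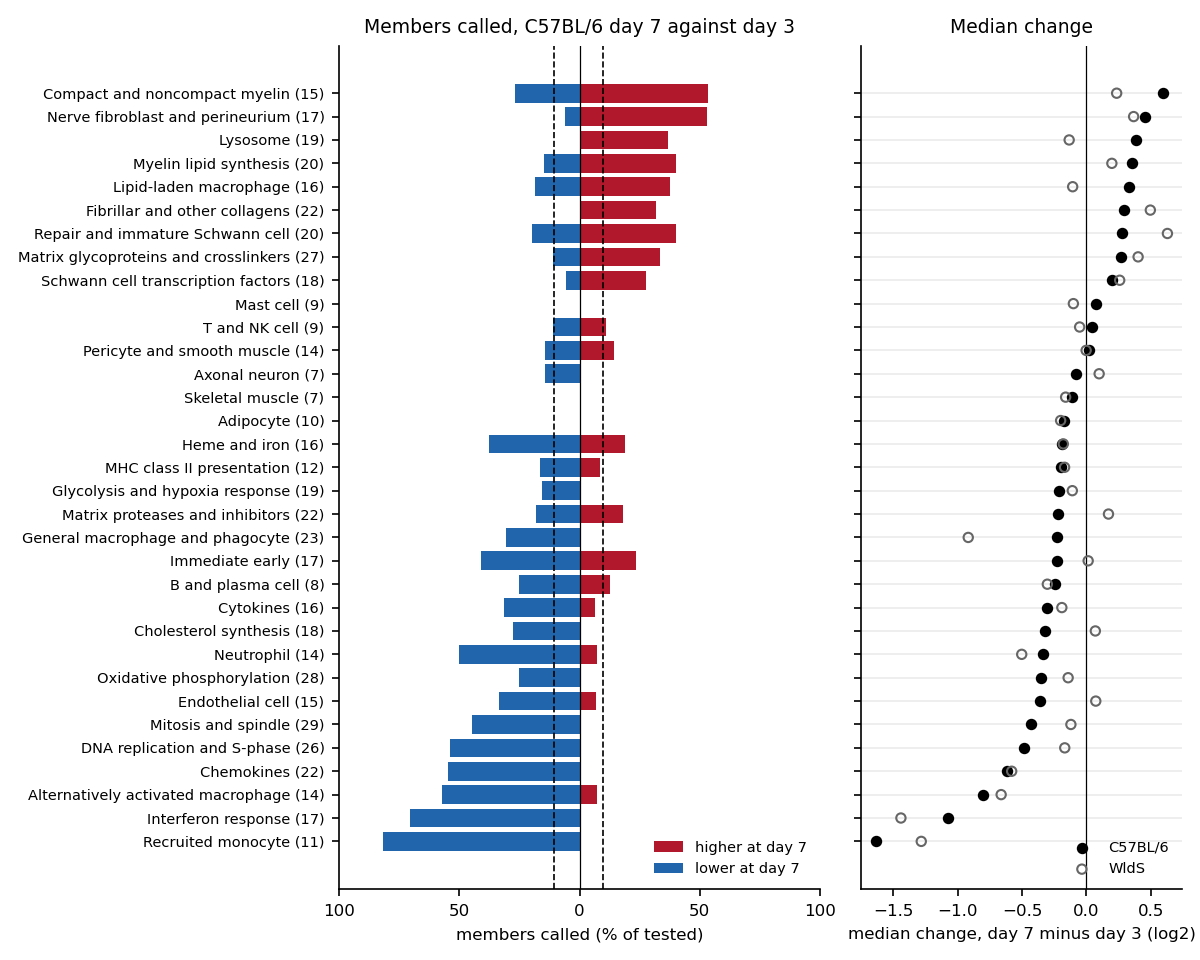
Left, the share of tested members of each gene list (number tested in brackets) called higher at day 7 (red, to the right) or lower (blue, to the left) in C57BL/6 nerve, with dashed lines at the shares over all genes (9.60% and 10.7%). Right, the median log2 change of each list in C57BL/6 (filled) and in WldS (open). Recruited monocyte (9 of 11) and interferon response genes (12 of 17) had the largest shares lower, and myelin (8 of 15) and fibroblast genes (9 of 17) the largest shares higher.

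Of 28 genes of oxidative phosphorylation, 24 had a negative change, and 7 were lower and 0 higher past the test (median -0.35), against 10.7% lower over all genes. The number lower was 1 without either day 7 array, 0 without day 3 replicate 1 and 9 without day 3 replicate 2. Cycs, cytochrome c, fell by 0.75 ± 0.15, a call that ended without day 3 replicate 1 (adjusted p = 0.0616), and Ndufa9, a complex I subunit, was at 11.02 and 11.10 at day 7, against 10.89 and 11.19 at day 3. Of 19 genes of glycolysis and the hypoxia response, 3 were lower and 0 were higher (median -0.22), and 1 was lower without day 7 replicate 2 or without day 3 replicate 2.

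Markers of cell types that a nerve segment can carry in from its surroundings were mostly flat. None of 10 adipocyte genes, 7 skeletal muscle genes and 9 mast cell genes passed by limma, with 2, 0 and 1 at an unadjusted p below 0.05. With 1 array left out, 1 adipocyte gene was higher without day 7 replicate 1 and without day 3 replicate 2, and 1 was lower without day 7 replicate 2. The adipocyte mean relative to day 3 was -0.47 and 0.19 on the day 7 arrays, against 0.05 and -0.05 on the day 3 arrays. Of 9 T and NK cell genes, 1 was higher and 1 was lower, with 0 higher without day 7 replicate 1 or day 3 replicate 1. The lower one was Thy1 (-0.86 ± 0.16), which fibroblasts and neurons also make. The T and NK cell counts were near the shares over all genes, 9.60% higher and 10.7% lower. Of 8 B and plasma cell genes, 1 was higher and 2 were lower, with 0 lower without day 3 replicate 1 or either day 7 array. The gene that rose was Cd22, an inhibitory receptor best known from B cells, with 9.50 and 9.34 at day 7, against 7.89 and 7.81 at day 3 (1.57 ± 0.18, adjusted p = 5.37e-05). Cd79a, the defining B cell receptor subunit, stood at 5.69 and 5.40, against 5.56 and 5.46 at day 3, close to the dim filter. Of 7 axonal genes 1, the neuronal tubulin Tubb3, was lower, with 7.37 and 7.20, against 8.58 and 8.14 at day 3 (-1.08 ± 0.18). Nefl, the light neurofilament, was below the dim filter at both days, after 7.85 before injury.

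The same interval in WldS nerve tells which changes of C57BL/6 nerve were shared by a strain with slow axon loss. In WldS, 963 genes (6.62%) differed between day 7 and day 3, 442 higher and 521 lower. Of these, 609 changed in the same direction as in C57BL/6, which is 20.6% of the C57BL/6 calls and 63.2% of the WldS calls, and 28 were called in opposite directions. Across the 14545 genes, which are not independent replicates, the changes in C57BL/6 and in WldS had a Pearson's r of 0.607. The difference between the strains' changes was tested as an interaction and called for 331 genes (2.28%), 164 with a more positive and 167 with a more negative change in C57BL/6. This count was 161 without C57BL/6 day 7 replicate 1, 140 without C57BL/6 day 7 replicate 2 and 169 without C57BL/6 day 3 replicate 1, and lay between 166 and 229 without WldS day 7 replicate 2 or either WldS day 3 array. Without WldS day 7 replicate 1 it was 496.

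**Figure D4:**
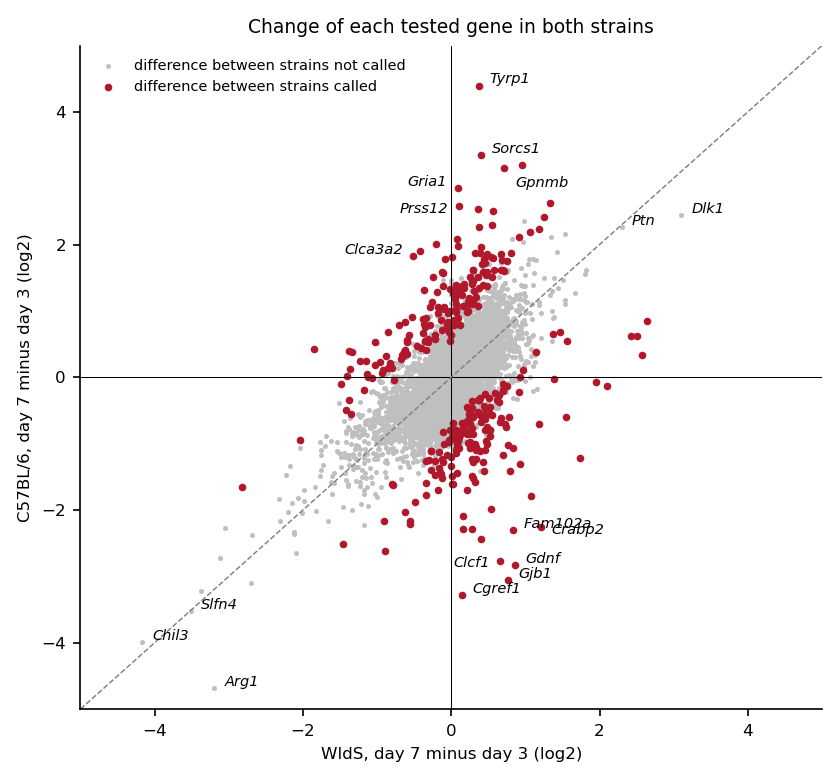
Change from day 3 to day 7 of each tested gene in C57BL/6 (y axis, log2) against WldS (x axis, log2), with the genes whose difference between strains was called in red and equal changes on the dashed line. Arg1, Chil3 and Slfn4 fell in both strains, whereas Gjb1, Gdnf, Clcf1, Cgref1, Fam102a and Crabp2 fell in C57BL/6 and Tyrp1, Sorcs1, Gpnmb, Gria1, Prss12 and Clca3a2 rose in C57BL/6 by more than in WldS.

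Many immune genes fell in both strains. Of the 11 monocyte genes 9 fell in WldS too (median -1.63 in C57BL/6 and -1.28 in WldS), and of the 17 interferon genes 12 fell in C57BL/6 and 16 in WldS (median -1.07 and -1.44). Chil3 changed by -3.98 in C57BL/6 and by -4.17 in WldS, and Slfn4 by -3.53 and -3.51. The interaction was called for 0 of the monocyte genes (limma, 2 at an unadjusted p below 0.05) and for 2 of the interferon genes, among them Mx1, whose fall was at least 1.65 in C57BL/6 and 2.82 in WldS, so that the size of its difference is not settled. For general macrophage genes the count of lower members was 7 of 23 in C57BL/6 and 15 in WldS, with an interaction called for 1. Ptn and Dlk1 were rises of the same kind, by 2.27 and 2.44 in C57BL/6 and by 2.30 and 3.10 in WldS, with interaction adjusted p of 0.992 and 0.351.

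Gdnf, Clcf1, Shh, Hmga2, Crabp2 and Gjb1 moved in opposite directions in the strains. Gdnf changed by -2.83 ± 0.17 in C57BL/6 and by 0.87 in WldS (adjusted p = 0.00509), Clcf1 by -2.76 and 0.66, Shh by -1.41 and 0.79, Hmga2 by -1.79 and 1.07, Crabp2 by -2.26 and 1.21, and Gjb1 by -3.06 and 0.76, each a call in both strains. For Gdnf the WldS means were 6.52 at day 7 and 5.65 at day 3, below both C57BL/6 means of 7.28 and 10.10. For Shh they were 12.62 and 11.83, with 11.83 and 13.24 in C57BL/6. Of the 20 repair and immature Schwann cell genes, 8 were higher and 4 lower in C57BL/6, against 13 higher and 0 lower in WldS, and 6 had a called interaction, all negative. Cgref1, which codes for a growth-related calcium-binding protein, had 6.52 and 6.79 at day 7, against 10.26 and 9.61 at day 3 in C57BL/6 (-3.28 ± 0.24), with a difference of 0.14 in WldS. Fam102a had 10.06 and 10.06, against 12.41 and 12.33 (-2.31 ± 0.11), and changed by 0.84 in WldS, and Tmem40 fell by 2.43 in C57BL/6, with a difference of 0.41 in WldS.

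Among the rises, those of Tyrp1 (4.40 in C57BL/6 and 0.37 in WldS), Sorcs1 (3.35 and 0.41), Gria1 (2.85 and 0.09), Prss12 (2.58 and 0.10) and Kcna2 (2.08 and 0.07) passed in C57BL/6 and did not in WldS, and each interaction was called. For Tyrp1 and Gria1 WldS means lay below the dim filter at both days, so these differences have no exact size. Gpnmb rose in both strains, by 3.15 in C57BL/6 and by 0.72 in WldS, as did Kcna1 (2.41 and 1.25) and Egr3 (2.23 and 1.18), with a called interaction for each. Of the myelin lipid enzymes, Ugt8a (1.96 and 0.40) and Fa2h (1.39 and 0.07) differed between the strains, while for Gal3st1 (1.22 and 0.64) the interaction did not pass (adjusted p = 0.476). In WldS the day 3 means were 11.29 for Ugt8a, 11.22 for Fa2h, 8.16 for Sorcs1 and 10.38 for Prss12. Each was above its C57BL/6 day 3 mean (8.27, 7.34, 5.72 and 8.28). At day 7 Ugt8a and Fa2h were still higher in WldS (11.69 and 11.29) than in C57BL/6 (10.23 and 8.73). For Egr3 the WldS day 3 mean (7.30) was below that of C57BL/6 (7.96). Of the replication and mitosis genes, 14 and 13 fell in C57BL/6, whereas 0 and 0 passed in WldS by limma (4 and 6 at an unadjusted p below 0.05; medians -0.17 and -0.12). No member had a called interaction, so a difference between the strains was not shown.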

How the data were processed

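Total RNA of pooled distal nerve stumps was measured on Affymetrix mouse genome arrays, 2 for each of 8 groups of strain and day. The deposited values are log2 signals per probe set, normalized by the authors. The submitters' processing notes name GCOS 1.4, RMA, limma and Partek without saying which step each did. The table holds 45101 probe sets, of which 34945 had 1 gene symbol in the platform annotation, 932 had several and 9160 had none, beside 64 controls. Each of 18193 genes was read from the probe set with the highest mean over all 16 arrays. Genes with a mean under the 30th percentile of probe sets (log2 5.37) were left out, which left 14545.

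A model with a mean per group was fitted to all 16 arrays (limma 3.58.1: lmFit, contrasts.fit, eBayes; R 4.3.3), and the difference between strains was tested as an interaction in the same fit. Errors beside changes are standard errors of this fit. Tests were two-sided with Benjamini-Hochberg adjustment across the 14545 genes, and calls were made at an adjusted p below 0.05. A group mean under the dim filter was taken as a bound. With 2 arrays per group their number limits the precision. On data simulated for this comparison over 14545 genes, the fit called 24% of 50 genes changed by 0.5 (log2), 88% of those changed by 1, 84% of those changed by -1 and 100% of those changed by 2. Only these sets of 50 genes were changed there, whereas 2950 genes were called in the data. The adjustment was therefore stricter in the simulation, and these shares do not give the sensitivity of the real comparison.

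Genes named were the 15 largest rises and falls, up to 5 called members and 2 fixed members of each gene list, and the 6 largest interactions of each sign; other genes are marked as chosen after their values were seen. The comparison, gene lists and motifs were chosen with earlier results of these data known. Lists were described by counts and medians, with no set test. Motifs were searched on both strands of RefSeq promoter windows. Alternatives changed the normalization, the dim filter, the probe set rule, the arrays in the fit, the spread model and the replicate block. Others left out each day 7 and day 3 array of both strains in turn.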

Additional observations from a re-analysis of the deposited data

Results flagged for a closer look

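Genes of Schwann cell signals and chromatin were among those whose change differed between C57BL/6 and WldS. The difference, the C57BL/6 change minus the WldS change on the log2 scale, was -3.69 for Gdnf, -3.42 for Clcf1, -2.20 for Shh, -1.21 for Ucn2, -2.86 for Hmga2 and -2.25 for Fosl1. For genes of myelin, the node and myelin lipids it was -3.82 for Gjb1, -1.52 for Nfasc, -1.20 for Drp2, 1.90 for Cmtm5, 1.56 for Ugt8a and 1.32 for Fa2h. For channels, receptors and their partners it was 1.17 for Kcna1, 2.01 for Kcna2, 2.76 for Gria1, 2.24 for Trpm3, 2.94 for Sorcs1, 1.30 for Lrrtm4 and 1.68 for Cd22. For transcriptional regulators and signalling inhibitors it was 1.05 for Egr3, 1.35 for Id2 and 2.18 for Nkd1. Macrophage, leukocyte and interferon genes gave 2.44 for Gpnmb, 1.07 for Trem2, -1.06 for Ccr1, -0.83 for Mmp9 and 1.16 for Mx1. The cytokine gene Il17b gave -1.73, and the transferrin receptor gene Tfrc gave -1.17. Genes of the stroma, vessels and matrix gave -3.47 for Crabp2, 0.90 for Abca8a, -0.92 for Plvap, -1.26 for Timp1 and -0.98 for Thy1. The remaining differences were -3.42 for Cgref1, 2.34 for Clca3a2, 1.95 for Cyp39a1, -3.14 for Fam102a, 2.47 for Prss12, 1.75 for Sh3gl3, -2.84 for Tmem40, -1.40 for Tubb3 and 4.03 for Tyrp1. Each passed the interaction test (limma, adjusted p below 0.05), beside 2.28% of all genes. For Mx1, Tyrp1, Trpm3, Lrrtm4, Gria1, Clca3a2 and Ucn2, 1 or more of the 4 group means lay below the dim filter, so their differences are those of the measured signals and have no exact size. A negative value means that C57BL/6 nerve had the lower change. For Gdnf and Shh the WldS mean at day 3 was also below that of C57BL/6, and for Ugt8a, Fa2h, Sorcs1 and Prss12 it was above. What the timing of axon loss contributes was not tested.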

How the results depend on the processing

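The number of genes called (2950) lay between 2609 and 4153 under the alternatives that kept all 4 arrays of this comparison, and the number changed at least 2-fold (529) between 377 and 542. The interaction count (331) lay between 286 and 366 under the alternatives of normalization, filter, probe set rule, spread model and block, and was 496 without the 2 arrays of other groups that had a high 3'/5' index, an alternative chosen after seeing the data. With 1 array left out, the calls ranged from 1123 to 2669 over the arrays of this comparison and up to 3305 over those of WldS, the 2-fold calls from 419 to 805 and the interaction calls from 140 to 496. A fit that leaves 1 array in a group assumes that it varies like the other groups. Centring the arrays on their medians moved the median of all genes to -0.03 and the split to 1225 higher and 1697 lower. Same-numbered arrays of day 7 and day 3 deviated together with a correlation of 0.193, but the number is not stated to mark a shared batch and the other groups did not follow it; with the replicate block 2695 genes were called, 527 of them at least 2-fold, with 286 interaction calls, and of the 137 genes named 137 kept their direction and side of the threshold. Under no alternative did a called gene named here reverse. In the simulation, with few genes changed, changes of 1 log2 unit were called far more often than those of 0.5. A gene that did not pass is not shown to be unchanged.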
